A study of Mus musculus with 4 samples.

Results

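The Hox genes encode homeodomain transcription factors that give cells along the body axis their regional identity. Mouse Hox genes were followed here in DFAT cells, fibroblast-like cells obtained from cultured mature fat cells that have shed their lipid and lost their fat cell features. Members were the genes whose platform symbol has the form Hox, a cluster letter from a to d and a paralogue number. Of 39 such genes in the mouse reference gene table, 33 had at least 1 probe set that names a single gene, against 18193 genes measured in all. The others were not analysed here. Where a gene had several probe sets, the one whose signal averaged highest across the arrays was read.

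The study hybridised total RNA of DFAT cells to 4 mouse Affymetrix arrays to learn which genes differ after ROCK inhibition and after Mkl1 knockdown. The 4 groups were cells given the solvent DMSO, cells given Y-27632 (a small molecule that blocks the ROCK kinases, which drive actomyosin contraction), cells transfected with Control siRNA and cells transfected with Mkl1 siRNA. Mkl1, now named Mrtfa, encodes an actin-regulated coactivator of the transcription factor SRF. All groups were DFAT cells kept in serum-containing medium, and the strain, age, sex and fat depot of the donor animals, the doses and the times are not given in the labels. Each group had 1 array, so no value has a replicate error, no test was possible, no p-value is given, and precision is limited by the number of arrays.

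Hox genes lie in 4 clusters, HoxA to HoxD, which arose from 1 ancestral cluster, and genes at the same position in different clusters are paralogues that share a number. Low-numbered genes sit at the 3′ end of a cluster and are switched on early and towards the head in the embryo, while high-numbered genes sit at the 5′ end and are switched on later and towards the tail and limb tips. Fibroblasts and fat cell precursors of the adult keep part of this pattern in culture, and fat depots are known to differ in it.

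The treatments could be read from genes outside the Hox family. Mrtfa signal was 8.55 with control siRNA and 7.70 with Mkl1 siRNA on the log2 scale, a ratio of 0.554. Pparg, which encodes the master regulator of adipogenesis, was higher by 1.23 with Y-27632 and by 1.86 with Mkl1 siRNA, and the hormone gene Adipoq by 3.55 and 3.83. All 8 listed mesenchymal genes, among them Pdgfra and Col1a1, were called expressed, as were all 8 mature adipocyte genes and 63.8% of all genes. In the endothelial, macrophage and leukocyte, skeletal muscle and mesothelial lists, 1 of 5 genes each was called expressed (Kdr, Csf1r, Des and Krt19). Pecam1 and Cdh5 stayed below the threshold on all 4 arrays, and so did Ptprc, Adgre1, Myod1, Myog, Msln and Wt1.

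A gene was called expressed when its highest array reached 5.692, the median of all log2 signals in the file. By that rule 18 of 33 Hox genes (54.5%) were expressed, against 63.8% of all 18193 genes. On all 4 arrays 16 of the 18 stayed at or above this level. Signals of different probe sets depend on the probes as well as on the RNA, so they were read against the threshold and across arrays, not against each other. The clusters differed in how many members were called. HoxC had 7 of 7 expressed, HoxB 6 of 9, HoxA 5 of 9 and HoxD 0 of 8.

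**Figure D1:**
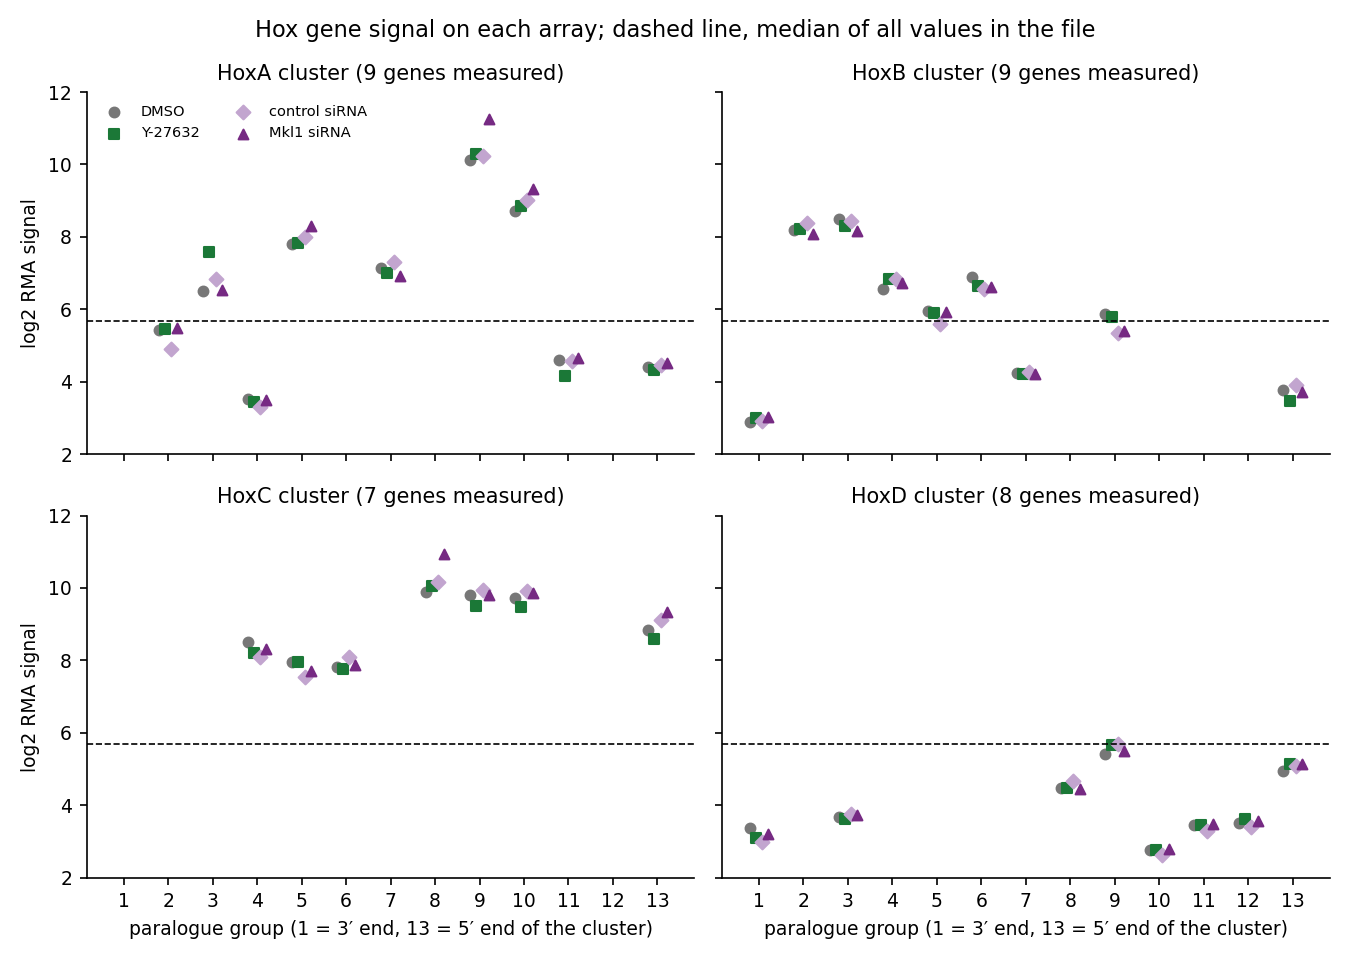
Log2 RMA signal of the 33 measured Hox genes (vertical axis) by paralogue group (horizontal axis), 1 panel per cluster and 1 symbol per array. All 7 HoxC genes lie above the dashed line, the median of all values at 5.692, and all 8 HoxD genes lie below it on every array.

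Along the paralogue numbers, groups 1 to 4 had 5 of 10 measured genes expressed (50%). Groups 5 to 8 had 7 of 9 (77.8%) and groups 9 to 13 had 6 of 14 (42.9%), where 63.8% of all genes were. Both group 1 genes (Hoxb1 and Hoxd1) were below the threshold, and all measured genes of group 5 (Hoxa5, Hoxb5 and Hoxc5) and group 6 (Hoxb6 and Hoxc6) were above it. Group 9 had 3 of 4 genes expressed and group 10 had 2 of 3, each lacking the HoxD member. Hoxa11, Hoxd11 and Hoxd12 were below the threshold. In group 13 only Hoxc13 of the 4 paralogues was called expressed, while Hoxa13 and Hoxd13, which pattern the digits, and Hoxb13, known from the prostate, were not. The expressed set therefore ended at group 10 in HoxA, at group 9 in HoxB and at group 13 in HoxC, as far as these probe sets reach.

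The HoxC cluster had a signal above the threshold on every array in all 7 of its measured genes. Hoxc4, the most 3′ gene of the cluster, stood at 8.51 with DMSO, 8.21 with Y-27632, 8.10 with control siRNA and 8.32 with Mkl1 siRNA. Hoxc5 stood at 7.97, 7.96, 7.54 and 7.70 in the same order, and Hoxc6 at 7.82, 7.78, 8.08 and 7.88. On the probe sets used, both siRNA arrays lay on the low side of DMSO for Hoxc4 and Hoxc5, whereas for Hoxc6 both lay above it. The other Hoxc5 probe sets, from 5.17 to 5.34, were below the threshold on every array. They differed from DMSO by 0.08 and 0.09 with control siRNA, and by 0.01 and -0.03 with Mkl1 siRNA. Hoxc8, which is known to restrain brown fat gene expression, stood at 9.90 with DMSO, 10.04 with Y-27632, 10.17 with control siRNA and 10.95 with Mkl1 siRNA. The Mkl1 siRNA array thus stood apart from the other 3. Hoxc9, a gene of trunk identity, stood at 9.81, 9.51, 9.93 and 9.80. Hoxc10, used as a marker of subcutaneous fat precursors, stood at 9.74, 9.47, 9.92 and 9.86. For both of these genes Y-27632 gave the lowest array. Hoxc13, known for its role in hair and nail, stood at 8.83 with DMSO, 8.60 with Y-27632, 9.11 with control siRNA and 9.33 with Mkl1 siRNA. Both siRNA arrays were above both arrays without siRNA for Hoxc13, and the gene was read by 1 probe set.

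In the HoxA cluster the expressed genes were Hoxa3, Hoxa5, Hoxa7, Hoxa9 and Hoxa10. Hoxa3, a gene of the pharyngeal arches and thymus, stood at 6.51 with DMSO, 7.58 with Y-27632, 6.84 with control siRNA and 6.54 with Mkl1 siRNA. Hoxa5, a gene of the neck, upper trunk and lung that is also expressed in fat, stood at 7.81, 7.84, 7.995 and 8.31. Hoxa7 stood at 7.15, 7.01, 7.30 and 6.92. Y-27632 gave the highest array of Hoxa3, and Mkl1 siRNA gave the highest of Hoxa5 and the lowest of Hoxa7. Hoxa9, a posterior gene that also sustains blood progenitors, stood at 10.12 with DMSO, 10.28 with Y-27632, 10.24 with control siRNA and 11.24 with Mkl1 siRNA. Hoxa10, a gene of the lumbar region and uterus, stood at 8.72, 8.86, 9.02 and 9.31. Mkl1 siRNA gave the highest array of both. Hoxa2, a hindbrain gene, came close to the threshold, with signals from 4.92 to 5.48, whereas Hoxa4 reached 3.52 at most, Hoxa11 4.65 and Hoxa13 4.52.

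In the HoxB cluster 6 genes from group 2 to group 9 were expressed. Hoxb2, a gene of hindbrain segments, stood at 8.19 with DMSO, 8.21 with Y-27632, 8.38 with control siRNA and 8.08 with Mkl1 siRNA. Hoxb3 stood at 8.49, 8.31, 8.43 and 8.17, and Hoxb4, known for expanding blood stem cells, at 6.57, 6.84, 6.85 and 6.74. These 3 genes varied little, with 0.318 at most between the highest and the lowest array. Hoxb6 stood at 6.90 with DMSO, 6.65 with Y-27632, 6.56 with control siRNA and 6.62 with Mkl1 siRNA. Hoxb5 stood at 5.95, 5.89, 5.59 and 5.92, and Hoxb9 at 5.88, 5.78, 5.34 and 5.41. Hoxb9 and Hoxb5 were the members just inside the threshold. Hoxb5 fell short of it on the control siRNA array, and Hoxb9 on both siRNA arrays. Hoxb1, Hoxb7 and Hoxb13 lay between 2.88 and 4.26.

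In the HoxD cluster all 8 measured genes were below the threshold on all 4 arrays. Hoxd9 was the member just outside the threshold, at 5.41 with DMSO, 5.667 with Y-27632, 5.689 with control siRNA and 5.50 with Mkl1 siRNA. Hoxd13 ran from 4.94 to 5.15, Hoxd8 from 4.44 to 4.66 and Hoxd3 from 3.63 to 3.76. Hoxd12 ran from 3.41 to 3.61, Hoxd11 from 3.31 to 3.49, Hoxd1 from 2.99 to 3.36 and Hoxd10 from 2.62 to 2.81. Mtx2 and Lnpk, beyond the ends of this cluster, were above the threshold on all 4 arrays. Mtx2, which encodes a mitochondrial membrane protein and lies beyond Hoxd1, stood between 10.10 and 10.73, and Lnpk, which shapes the endoplasmic reticulum and lies beyond the 5′ end, between 8.39 and 8.67. Evx2, the homeobox gene next to Hoxd13, ran from 5.59 to 6.10 and was below the threshold with Y-27632 and Mkl1 siRNA. At the HoxA cluster Skap2, beyond the 3′ end, ran from 9.58 to 9.81, and Evx1, beyond Hoxa13, from 4.54 to 4.81. Of 16 measured genes in the list of cluster neighbours, 12 were expressed, where 63.8% of all genes were. None of the 12 was 2-fold apart with Y-27632 or Mkl1 siRNA, where 1.49% and 3.53% of all expressed genes were. The furthest from control siRNA with Mkl1 siRNA were Hibadh at 0.59, Cbx5 at -0.44 with 5 probe sets from -0.44 to 0.24, and Tax1bp1 at 0.32, while Evx2 differed by -0.46 with Y-27632. The non-coding genes Hoxa11os, Hoxb5os and Hoxd3os1 were below the threshold on all 4 arrays, with 5.12 as the highest signal. The other 14 listed non-coding genes were not analysed here.

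Promoter sequences are shown for a pair of paralogue groups in which the HoxA member was called expressed and the HoxD member was not, since these pairs hold the genes with the largest differences described further on. The bases are the 250 upstream of the RefSeq start in assembly GRCm38.p6, 5′ to 3′ on the strand of the gene, with each CG dinucleotide, the site of DNA methylation, in capitals. The windows are chr6:52213068-52213317 on the minus strand for Hoxa3 and chr2:74711743-74711992 on the plus strand for Hoxd3. Those of group 9 are chr6:52227371-52227620 on the minus strand for Hoxa9 and chr2:74697513-74697762 on the plus strand for Hoxd9.
Hoxa3: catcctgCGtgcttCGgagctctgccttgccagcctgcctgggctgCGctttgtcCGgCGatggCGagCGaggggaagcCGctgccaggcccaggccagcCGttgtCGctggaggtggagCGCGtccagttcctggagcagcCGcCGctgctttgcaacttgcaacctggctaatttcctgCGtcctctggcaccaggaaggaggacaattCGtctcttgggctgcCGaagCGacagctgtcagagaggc
Hoxd3: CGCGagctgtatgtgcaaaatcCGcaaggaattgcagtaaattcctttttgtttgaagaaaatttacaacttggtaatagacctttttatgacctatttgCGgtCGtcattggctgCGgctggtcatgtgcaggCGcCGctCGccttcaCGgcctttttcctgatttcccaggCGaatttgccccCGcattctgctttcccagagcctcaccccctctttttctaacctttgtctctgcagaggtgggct
Hoxa9: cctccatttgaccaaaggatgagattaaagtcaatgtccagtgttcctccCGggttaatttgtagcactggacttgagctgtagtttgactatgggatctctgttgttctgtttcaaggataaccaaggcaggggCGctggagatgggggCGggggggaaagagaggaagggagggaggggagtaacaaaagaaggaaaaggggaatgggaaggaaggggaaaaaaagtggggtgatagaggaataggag
Hoxd9: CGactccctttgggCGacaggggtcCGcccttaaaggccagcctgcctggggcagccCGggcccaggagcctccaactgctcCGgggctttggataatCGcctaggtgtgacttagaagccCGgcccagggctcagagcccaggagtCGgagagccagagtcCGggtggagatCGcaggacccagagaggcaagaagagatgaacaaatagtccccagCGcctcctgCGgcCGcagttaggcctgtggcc

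The Hoxa3 window holds 18 CG dinucleotides and the Hoxd3 window 12, while the Hoxa9 window holds 3 and the Hoxd9 window 13. CG content therefore did not run one way between the paralogues called expressed and those not called in these pairs. The RefSeq promoter table held 8 windows of 7 expressed Hox genes and 13 windows of 12 Hox genes that were not expressed. Their median CG count was 11 (range 3 to 28) and 13 (range 2 to 35). It was 6 over the 32841 promoters kept (range 0 to 56), called all promoters below. Chromosome 18, duplicate entries and incomplete windows were left out of these. The 2 Hox groups overlapped over most of their range. Searched on both strands, the sequence TGATNNAT, bound by PBX and HOX proteins together, was in 0 of 8 windows of expressed genes and in 3 of 13 of the others, and in 7.69% of all promoters. TGACAG, bound by MEIS proteins, was in 1 of 8 and 1 of 13, and in 15.9% of all. The SRF motif known as the CArG box was in 0 of 8 and 0 of 13, and in 1.47% of all promoters. TGATNNAT and TGACAG share their first 3 letters, and each motif was counted on its own. A match or its absence describes these letters in this window only.

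With Y-27632 most expressed Hox genes stayed close to DMSO, as most expressed genes did, and Hoxa3 stood apart. Differences are given as treatment minus its own control on the log2 scale, where 1 is a 2-fold difference. Of 18 expressed Hox genes, 7 were above DMSO and 11 below, with a median of -0.05, against a median of 0.00 over all 11600 expressed genes. Only Hoxa3 was at least 2-fold apart, 1 of 18, where 1.49% of all expressed genes were. It was higher by 1.06, a ratio of 2.09, and against the control siRNA array by 0.74. Its 4 probe sets did not run together, since the other 3 differed by -0.10, -0.07 and 0.16. With the mean of all 4 the difference was 0.26 and Hoxa3 no longer reached the expressed threshold, at 5.67 on its highest array. The other 17 genes (94.4%) lay within 0.5 of DMSO, as did 94.1% of all expressed genes. These 17 ran from -0.30 for Hoxc4 and Hoxc9 to 0.27 for Hoxb4.

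By cluster, on the probe sets used, 6 of 7 HoxC genes were below DMSO with Y-27632 (median -0.24), and 4 of 5 HoxA genes were above it (median 0.14). Other probe sets were below DMSO for Hoxa5 (-0.13), Hoxa9 (-0.05) and Hoxa10 (-0.0045), besides those of Hoxa3 given above. In HoxC the probe sets not used gave 0.13 and -0.05 for Hoxc5, and 0.03 and -0.09 for Hoxc6. In HoxB 4 of 6 genes were below DMSO, with a median of -0.08. Against the control siRNA array 5 of 7 HoxC genes were below, with a median of -0.31, but 3 of 5 HoxA genes were then below too, with a median of -0.16. The genes furthest below control siRNA were Hoxc13 at -0.52, Hoxc10 at -0.44 and Hoxc9 at -0.43, the 3 most 5′ of the measured HoxC genes. No Hox gene was at least 2-fold apart in that comparison, where 2.78% of all expressed genes were.

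**Figure D2:**
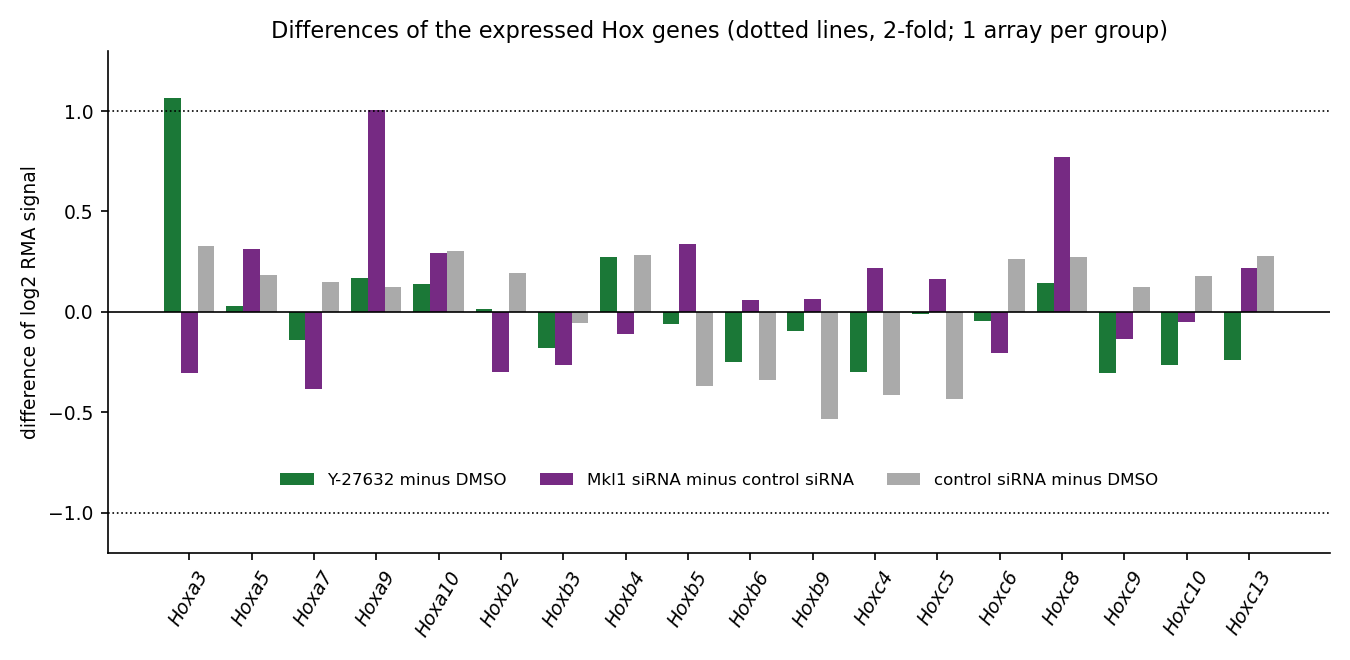
Difference of log2 RMA signal (vertical axis) for each of the 18 expressed Hox genes (horizontal axis, by cluster), with 1 bar per comparison and dotted lines at 2-fold. Hoxa3 with Y-27632 (1.06) and Hoxa9 with Mkl1 siRNA (1.003) reach the line, and Hoxc8 with Mkl1 siRNA (0.77) comes next.

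With Mkl1 siRNA, Hoxa9 and Hoxc8 stood above control siRNA. The other expressed Hox genes lay within 0.5 of it, as most expressed genes did. Of 18 expressed genes, 10 were above control siRNA and 8 below, with a median of 0.06, against 0.00 over all expressed genes. Hoxa9 was higher by 1.003, a ratio of 2.004, and was the only Hox gene at least 2-fold apart, 1 of 18, where 3.53% of all expressed genes were. Both Hoxa9 probe sets were higher, by 1.003 and 0.54, and their mean of 0.77 was short of 2-fold. Hoxc8, read by 1 probe set, was higher by 0.77, a ratio of 1.71. At 1.5-fold these were the only Hox genes, 2 of 18 or 11.1%, where 11.3% of all expressed genes passed. Against the DMSO array Hoxa9 was higher by 1.13 and Hoxc8 by 1.05, both past 2-fold, where 5.97% of all expressed genes were.

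The remaining 16 genes (88.9% of the 18) lay between -0.38 for Hoxa7 and 0.34 for Hoxb5. They were thus within 0.5 of control siRNA, as were 84.7% of all expressed genes. Hoxa5 was higher by 0.31 on both of its probe sets. Hoxa10 was higher by 0.29 on the probe set used and by 0.12 on the other, which lay below the threshold. Hoxb3 was lower on both of its probe sets, at -0.26 and -0.33. Within HoxA the genes of groups 5, 9 and 10 were therefore above control siRNA and Hoxa3 and Hoxa7 below it. Hoxa3 differed by -0.30 on the probe set used and by 0.28 on the other one above the threshold. On the probe sets used, 3 of 6 HoxB genes were on either side, and 4 of 7 HoxC genes were above. The Hoxc5 probe sets not used differed by -0.07 and -0.12, and those of Hoxc6 by -0.09 and 0.10. Of the expressed paralogues of Hoxa9, Hoxc9 differed by -0.14. Hoxb9 differed by 0.06, but it lay below the threshold on both of these arrays (5.34 and 5.41), where differences may be too small.

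**Figure D3:**
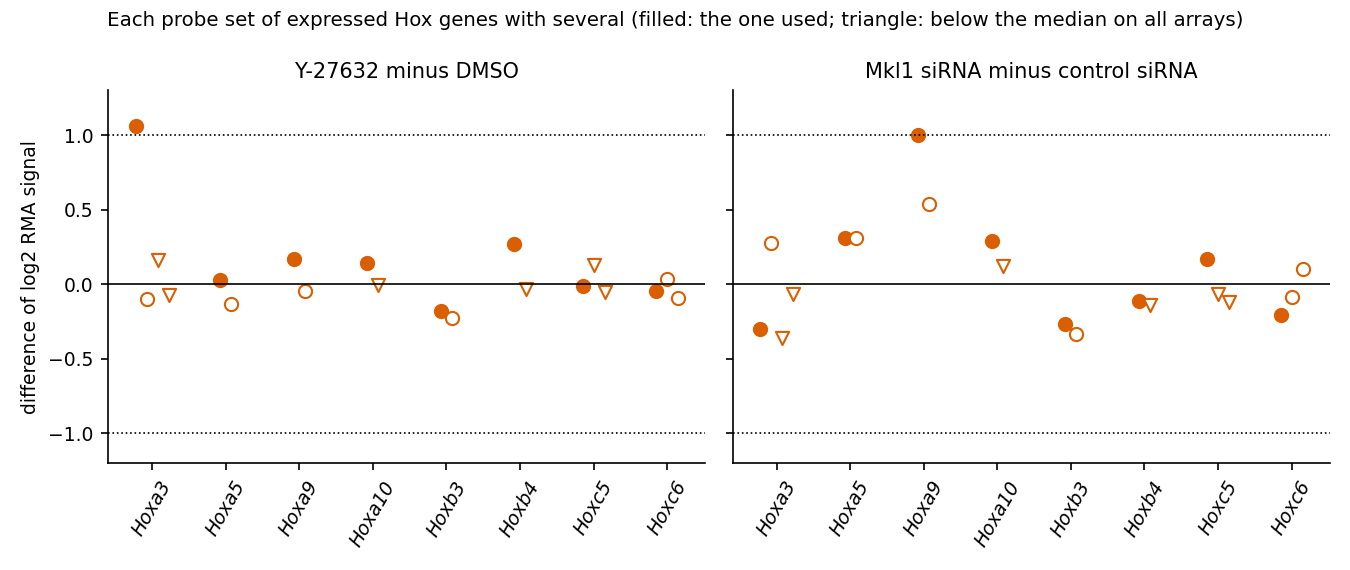
Difference of log2 RMA signal (vertical axis) of every probe set of the 8 expressed Hox genes with several (horizontal axis), for Y-27632 minus DMSO and Mkl1 siRNA minus control siRNA. Filled symbols are the probe sets used and triangles those below the threshold on all arrays; the Hoxa3 probe sets part with Y-27632, whereas both Hoxa9 probe sets are above 0 with Mkl1 siRNA.

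The same calculation between the 2 control arrays is given for comparison. These arrays differ in treatment, transfection against solvent, so their differences do not measure replicate error. Control siRNA was above DMSO for 12 of 18 expressed Hox genes, with a median of 0.16, against -0.01 over all expressed genes. No Hox gene was 2-fold apart, where 2.04% of all expressed genes were, and the range ran from -0.53 for Hoxb9 to 0.33 for Hoxa3. On the probe sets used, all 5 HoxA genes were above DMSO, from 0.12 for Hoxa9 to 0.33. Another probe set was below DMSO for Hoxa3 (-0.34), Hoxa5 (-0.14), Hoxa9 (-0.05) and Hoxa10 (-0.07, itself below the threshold). The remaining Hoxa3 probe sets, below the threshold, were above DMSO by 0.53 and 0.16. On the probe sets used, Hoxc4 at -0.41 and Hoxc5 at -0.43 were below DMSO while the other 5 HoxC genes were above, from 0.12 for Hoxc9 to 0.28 for Hoxc13. The remaining Hoxc5 probe sets, below the threshold on every array, were above DMSO by 0.08 and 0.09. With the mean of all its probe sets Hoxc5 differed by -0.09. The control difference of Hoxc13 exceeded its 0.22 with Mkl1 siRNA, and that of Hoxa10, 0.30, was about as large as its 0.29. The median size of the difference between the control arrays was 0.28 over the expressed Hox genes, against 0.15 with Y-27632 and 0.24 with Mkl1 siRNA. The 1.06 of Hoxa3, the 1.003 of Hoxa9 and the 0.77 of Hoxc8 were each larger than the difference of any expressed Hox gene between the control arrays, although a probe set shared by Hoxb7 and Hoxb8, assigned to neither, differed there by -0.84. Set against the other control array, 10 of 18 differences with Y-27632 and 9 of 18 with Mkl1 siRNA lay on the other side of 0. The treatment comparisons share no array with each other, and each shares 1 with the control comparison. In 9 of 18 genes both treatments lay on the same side of their own control.

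Over all 4 arrays, the highest minus the lowest signal had a median of 0.43 in the expressed Hox genes and 0.37 in all expressed genes. For 14 of 18 Hox genes (77.8%) it was under 0.6, as for 75.9% of all. It reached 2-fold for Hoxa9 at 1.13, Hoxa3 at 1.06 and Hoxc8 at 1.05, 3 of 18, where 8.74% of all expressed genes were. The smallest was 0.28, for Hoxb4.

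**Figure D4:**
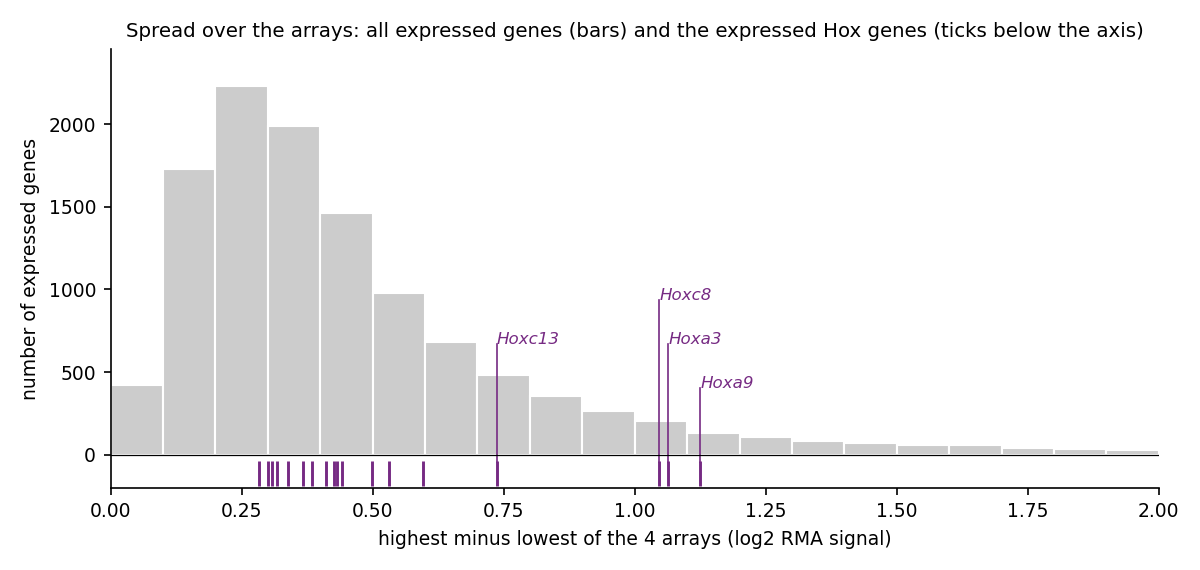
Number of expressed genes (vertical axis) by the highest minus the lowest log2 RMA signal over the 4 arrays (horizontal axis, cut at 2), with a tick below the axis for each of the 18 expressed Hox genes. Most Hox genes lie between 0.28 and 0.6, inside the bulk of all genes, and Hoxc8, Hoxa3 and Hoxa9 lie past 1.

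Fat cell and mesenchymal genes moved beside these values. All 8 mature adipocyte genes were above control with both treatments, with medians of 1.34 and 1.72. With each treatment 7 of 8 were at least 2-fold higher, where 1.49% and 3.53% of all expressed genes were at least 2-fold apart. Beside Pparg and Adipoq, these were the lipid droplet gene Cidec at 3.18 with Y-27632 and 3.30 with Mkl1 siRNA, the fatty acid carrier gene Fabp4 at 1.405 and 1.59, the transcription factor gene Cebpa at 1.11 and 1.45, and the lipase genes Pnpla2 at 1.28 and 1.42 and Lipe at 2.60 and 2.97. The other probe set of Lipe differed by -0.16 and -0.25, and that of Pnpla2 by 0.46 and 0.28. Cidec was below the threshold with DMSO (5.605) and control siRNA (5.19), so only the treated arrays made it count as expressed. The summed linear signal of the 8 adipocyte genes was 25080 with DMSO and 25749 with control siRNA, against 53278 with Y-27632 and 58571 with Mkl1 siRNA. The 8 mesenchymal and preadipocyte genes were all below control siRNA with Mkl1 siRNA, with a median of -0.32 and Col1a1 at -1.05, and 5 of 8 were above DMSO with Y-27632. Their summed signal ran from 88626 to 91012 on the other 3 arrays and was 73429 with Mkl1 siRNA. Of 5 expressed smooth muscle genes, 4 were below DMSO with Y-27632 and 5 below control siRNA with Mkl1 siRNA. The contractile genes Tagln and Cnn1 differed by -1.25 and -1.21 with Y-27632. Hoxa9 and Hoxc8 differed by 0.17 and 0.14 with Y-27632 and by 1.003 and 0.77 with Mkl1 siRNA. In RNA from whole cultures, fewer cells of a type and less RNA per cell cannot be told apart. The part of the shift in cell state in the Hox values was not tested.

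HOX proteins bind DNA together with cofactors of the TALE homeodomain class, the PBX, MEIS and PKNOX proteins. Of 9 listed cofactors 8 were measured and 7 expressed, where 63.8% of all genes were. With Y-27632 none was 2-fold apart, where 1.49% of all expressed genes were. The median was 0.08, and the furthest was Pknox2 at -0.38, with 0.25 on its other probe set. With Mkl1 siRNA the median was 0.15, and Pknox2 was the only cofactor at least 2-fold apart, 1 of 7, where 3.53% of all expressed genes were. It stood at 8.92 with DMSO, 8.54 with Y-27632, 9.18 with control siRNA and 8.03 with Mkl1 siRNA. Mkl1 siRNA thus gave the lowest array, -1.14 from its control, and the other probe set differed by -0.30. The mean of both was -0.72, short of 2-fold, and against DMSO the probe set used differed by -0.89. Meis2 stood at 9.37, 9.51, 8.76 and 9.71, a difference of 0.95 with Mkl1 siRNA, and its 4 probe sets ran from 0.71 to 1.02. For Meis2 control siRNA was below DMSO by -0.62, so that against DMSO the Mkl1 siRNA array was higher by 0.33. Pknox1 was higher by 0.43 and Meis1 by 0.41 with Mkl1 siRNA, with Meis1 probe sets from -0.03 to 0.53. Between the control arrays Pknox1 differed by -0.43.

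Polycomb proteins keep silent Hox genes closed, and trithorax proteins, among them the histone methyltransferase encoded by Kmt2a, keep active ones open. All 22 measured members of this list were expressed, where 63.8% of all genes were. With Y-27632 9 were above DMSO and 13 below, with a median of -0.03. None was 2-fold apart, where 1.49% of all expressed genes were. With Mkl1 siRNA 15 were above control siRNA and 7 below, with a median of 0.13, and Kmt2a was the only one at least 2-fold apart, 1 of 22, where 3.53% of all expressed genes were. Kmt2a stood at 8.48 with DMSO, 8.46 with Y-27632, 8.60 with control siRNA and 9.64 with Mkl1 siRNA. Mkl1 siRNA thus gave the highest array by 1.03, and the second probe set differed by 0.67. The mean of both was 0.85, short of 2-fold. The Polycomb methyltransferase subunit gene Suz12 was higher by 0.53 with probe sets from -0.44 to 0.53, and the catalytic subunit gene Ezh2 by 0.45. Control siRNA was below DMSO for both, by -0.98 and -0.81, and Mkl1 siRNA was below DMSO too, by -0.46 and -0.36. Phc1, a subunit of the other Polycomb complex, differed by -0.59.

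**Figure D5:**
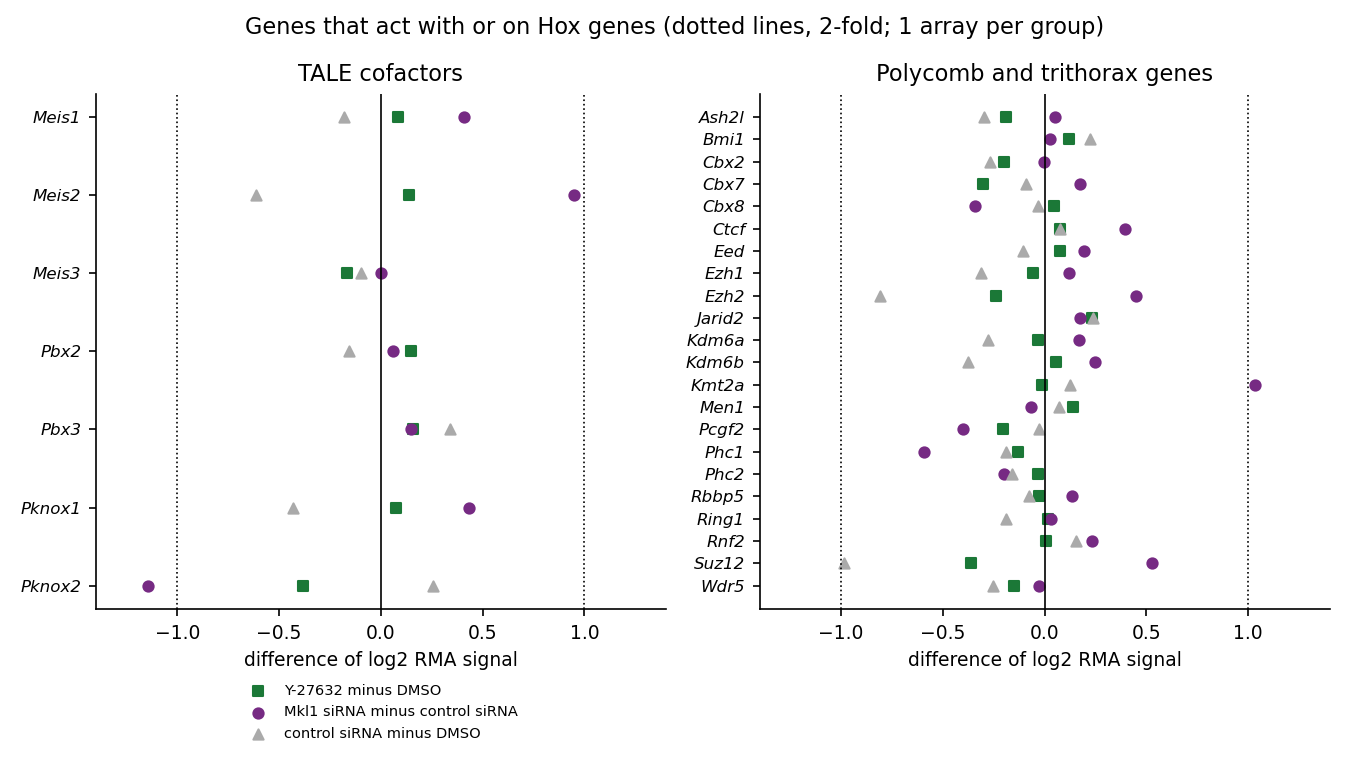
Difference of log2 RMA signal (horizontal axis) of the 7 expressed TALE cofactors and 22 Polycomb and trithorax genes (vertical axis), with 1 symbol per comparison and dotted lines at 2-fold. Pknox2 (-1.14) and Kmt2a (1.03) pass the lines with Mkl1 siRNA; Suz12 and Ezh2 lie furthest to the left between the control arrays.

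Positional identity also rests on transcription factors outside the Hox clusters. Of 36 listed, 34 were measured and 16 expressed, where 63.8% of all genes were. Tbx15 and Shox2 were expressed on all 4 arrays. Tbx15 stood at 10.33 with DMSO, 10.31 with Y-27632, 10.53 with control siRNA and 10.47 with Mkl1 siRNA, and Shox2 stood at 9.67, 9.70, 9.66 and 9.65. Emx2, a homeobox gene of the urogenital tract and shoulder girdle, stood at 10.36, 10.50, 11.05 and 11.32, with both siRNA arrays above the others. The forelimb gene Tbx5, the hindlimb genes Tbx4 and Pitx1, the ventral limb gene En1 and the mesothelial gene Wt1 were below the threshold on all 4 arrays. None of the 16 was 2-fold apart with Y-27632 or Mkl1 siRNA, where 1.49% and 3.53% of all expressed genes were. Their medians were 0.01 and 0.04. The furthest was Nr2f1, a nuclear receptor, which was higher by 0.45 with Y-27632 and by 0.70 with Mkl1 siRNA. Msx2 differed by -0.49 with Mkl1 siRNA, and Irx5 and Irx3 by 0.35 and 0.28, where control siRNA was below DMSO by -0.38 and -0.52.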

How the data were processed

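Each of the 4 groups (DMSO, Y-27632, and the control and Mkl1 siRNAs) was read on 1 single-colour Affymetrix array, and groups follow the sample titles. Per the submitters' processing notes the authors used RMA, and the deposited table gives a log2 signal for every probe set. The scale was inferred from the values (2.02 to 14.6), genes were not centred, and no scanner files were used here. RMA equalises array distributions and compresses differences near background, so differences of weak genes may be too small. Array medians ran from 5.67 to 5.71.

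Of 45101 probe sets, 34958 had 1 platform symbol and were named. The other 932 had several symbols and 9211 had none. The 64 control probe sets were left out, and symbols were updated through the gene number where the reference table of GRCm38.p6 held it (34741 probe sets). The probe set with the highest mean was used for each of 18193 genes, and 11600 reached the expressed threshold. Differences were computed with Python 3.11.15 and pandas 2.3.3, and the calculation was tested on simulated data. Single arrays allowed no test, no omission of replicates and no replicate block.

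Some list members are not reported here. The members, the lists and the threshold were chosen with earlier results of these data known. Every measured Hox gene is accounted for, with values on each array where it was expressed. In the lists of cofactors, chromatin regulators, positional factors, cluster neighbours, non-coding and retinoid genes, the 4 expressed genes with the largest difference in either treatment comparison and any gene 2-fold apart in one were named. In the cell marker lists only genes 2-fold apart were named by that rule, and the rest are given by counts and sums with examples. Tbx15, Shox2, Emx2, Mtx2, Lnpk, Skap2, Evx1, Pdgfra and the genes below threshold were named after their values were seen. The alternatives tried were averaging every probe set of a gene, dropping those with the suffix _s_at, _x_at or _a_at (they may bind several transcripts), other thresholds, loess (span 0.3) or median centring and the other control array.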

Additional observations from a re-analysis of the deposited data

How the results depend on the processing

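The count of expressed Hox genes was 17 of 33 with the mean of all probe sets, where Hoxa3 was below the threshold, and 16 of 32 without the probe sets open to binding several transcripts, where Hoxa10 was below it and Hoxb6 had no probe set left. It was 25 with the 25th percentile (4.10) as threshold, with Hoxd8, Hoxd9 and Hoxd13 then among them, and 11 with the 75th percentile (8.08). The 1 gene at least 2-fold apart with Y-27632, Hoxa3, became 0 with the mean of all probe sets, 0 with the filter at the 75th percentile, which leaves Hoxa3 out, and 0 against the other control array. The 1 gene with Mkl1 siRNA, Hoxa9, became 0 with the mean of all probe sets, 2 against the other control array and 2 at 1.5-fold, with Hoxc8 as the second in both. The Hox median ran from -0.13 to -0.02 with Y-27632, from 0.01 to 0.22 with Mkl1 siRNA and from 0.04 to 0.19 between the control arrays. Of 213 differences of single expressed Hox genes with the mean of all probe sets, without the probe sets open to binding several transcripts, or with median or loess centring, 6 fell on the other side of 0, none of them larger than 0.303 in size to begin with. Against the other control array, an alternative for single genes chosen after seeing the data, 10 of 18 with Y-27632 and 9 of 18 with Mkl1 siRNA did, up to Hoxc4 (-0.30 to 0.11) and Hoxb5 (0.34 to -0.03). With 1 array per group, replicate error stays unknown. No paired analysis was possible because each group has 1 array.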

Other observations

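Some probe sets name 2 Hox genes and belong to no gene above. The probe set shared by Hoxb7 and Hoxb8 stood at 6.46 with DMSO, 6.54 with Y-27632, 5.62 with control siRNA and 6.34 with Mkl1 siRNA, so that the control siRNA array was the lowest. Mkl1 siRNA was above it by 0.72 and Y-27632 by 0.92, while control siRNA differed from DMSO by -0.84. The probe set of Hoxb7 alone lay between 4.20 and 4.26. One probe set shared by Hoxd3 and Hoxd4 ran from 5.25 to 5.60 and another from 3.48 to 3.86, below the threshold of 5.692 on all 4 arrays.

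Retinoic acid switches on 3′ Hox genes in the embryo. Of 16 measured genes of its receptors, carriers and enzymes, 10 were expressed, where 63.8% of all genes were. None of the 10 was 2-fold apart with Y-27632 or Mkl1 siRNA, where 1.49% and 3.53% of all expressed genes were. The medians of the 10 were -0.04 for Y-27632 and 0.04 for Mkl1 siRNA. Dhrs3, which turns retinal back into retinol, stood at 6.999 with DMSO, 7.45 with Y-27632, 7.39 with control siRNA and 8.19 with Mkl1 siRNA, the furthest from its control at 0.80 with Mkl1 siRNA. The carrier gene Crabp1 was higher by 0.49 and 0.54 but lower by -1.19 with control siRNA than with DMSO. Crabp1 reached the threshold only with Y-27632, at 5.73. It was below it with DMSO (5.24), control siRNA (4.05) and Mkl1 siRNA (4.59). Aldh1a1, which makes retinoic acid, was lower by -1.08 with control siRNA than with DMSO and differed by -0.35 with Y-27632 and -0.39 with Mkl1 siRNA. Cyp26b1, which breaks retinoic acid down, differed by -0.43 with Mkl1 siRNA. The receptor gene Rarb and the enzyme genes Aldh1a2 and Cyp26a1 were below the threshold on all 4 arrays. The probe set used for the enzyme gene Aldh1a3 was below it too, but another stood at 3.49 with DMSO, 4.31 with Y-27632, 3.82 with control siRNA and 5.78 with Mkl1 siRNA, above the threshold on the last array only.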
